A study of Mus musculus with 6 samples.

Results

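Matrix metalloproteinases (MMPs), ADAMTS proteases and their tissue inhibitors (TIMPs) were described in mouse embryonic fibroblasts (MEFs), connective tissue cells grown from embryos, without and with a functional Pax7 gene. The members were all probe sets assigned to a single gene whose symbol is Mmp with a number, Adamts with a number, or Timp1 to Timp4, with the probe set of the highest mean over the 6 arrays taken for each gene. This gave 44 of the 22180 genes measured: 22 MMPs, 18 ADAMTS genes and 4 TIMPs, or 40 proteases and 4 inhibitors. Mmp15 and Adamts2 were not analysed here. The 3 Pax7-/- and 3 Pax7+/+ arrays carry biological replicate numbers 1 to 3 in each genotype. Both genotypes had the F1 (C57Bl6N x 129Sv) background, and the cells were untreated, grown in serum and harvested at confluence. The labels give neither the age of the embryos nor what cultures the numbers stand for, so p-values measure only the spread between these samples, which may be technical. Values are log2 signals of Affymetrix arrays, and every difference is Pax7-/- minus Pax7+/+ on that scale. For arrays, their number limits the precision.

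MMPs are zinc-dependent enzymes that cut collagens and other proteins of the matrix around cells. Most are secreted as inactive precursors, and membrane-type MMPs act at the cell surface, where Mmp14 activates the precursor of Mmp2. ADAMTS enzymes are secreted relatives that cleave proteoglycans such as versican and aggrecan or trim procollagens. TIMPs bind the active site of these enzymes, Timp2 also takes part in the activation of pro-Mmp2 by Mmp14, and Timp3 is the TIMP that is held in the matrix and that also inhibits several ADAM and ADAMTS proteases. Fibroblasts are a main source of Mmp2, Mmp14 and Timp1 to Timp3.

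The smallest p among the members, with or without a block, belonged to an inhibitor. Timp3 was lower in the knockout by 0.45, 0.47 and 0.49 in the 3 replicate pairs, while Timp1 and the gelatinase Mmp2 were slightly higher in all 3 pairs and the proteoglycanases Adamts9 and Adamts5 were lower in all 3. No member passed limma's test over all genes, whether without a block (0 of 44, with 0% of all genes called) or with the replicate number as a block (0 of 44, with 0.0766% of all genes called). The smallest adjusted p was 0.156 with the block, for Timp3, and 0.99997 without it. With the block, limma gave an unadjusted p under 0.05 for 4 of the 44 members (9.09%), against 6.73% of all genes, and these were Timp3, Adamts9, Mmp2 and Adamts5. Without the block Timp3 was the only member with an unadjusted p under 0.05, as were 0.0676% of all genes.

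The 2 arrays of replicate 3 stood apart from the other 4 before any comparison of genotypes. Over all genes they correlated at 0.992 with each other, and at 0.814 to 0.844 with the other 4 arrays, which correlated at 0.988 to 0.990. In the fit without the block this gap counts as spread within a genotype, so its lack of calls says little. Each result is therefore given by replicate pair, where the match of replicates 1 and 2 by number is assumed. As background level of an array served the signal below which 95% of 1394 receptor genes of the nose (olfactory and vomeronasal) lay. It was 5.43, 5.34 and 4.63 on Pax7-/- replicates 1, 2 and 3 and 5.44, 5.33 and 4.65 on the Pax7+/+ ones. Pax7 itself read 6.17, 5.95 and 5.05 on the Pax7-/- arrays and 6.14, 5.65 and 4.88 on the Pax7+/+ arrays (0.16, SE 0.10 with the block, limma adjusted p = 0.804). The position of its probe set against the disrupted part of Pax7 was not known here, so these values do not check the genotype. The sample labels name ESCs as cell type, whereas titles and source name fibroblasts. All 10 fibroblast markers examined were above background on all 6 arrays, and of 8 pluripotent cell markers Pou5f1 was above it on all 6, Dppa4 on 4, Nanog on 2 and the other 5 (Sox2, Zfp42, Dppa5a, Esrrb and Tdgf1) on 0.

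Timp3, read by probe set 17236182, had log2 signals of 10.43, 10.43 and 10.62 on Pax7-/- replicates 1, 2 and 3 and of 10.88, 10.91 and 11.11 on the Pax7+/+ ones. The highest knockout array lay below the lowest wild type array, and the replicate 3 shift of 0.19 in the knockout and 0.22 in wild type was smaller than the difference between genotypes. The means were 10.49 ± 0.11 in Pax7-/- and 10.96 ± 0.13 in Pax7+/+ cells (SD, n = 3 each). The difference was -0.47, or 1.39-fold lower. Without the block its SE was 0.17 and limma's adjusted p 0.99997. With the block the SE was 0.09, the 95% interval ran from -0.67 to -0.27 and limma's adjusted p was 0.156. Timp3 was the only member whose genotypes did not overlap. Over all genes, 0.744% were lower and 0.667% higher without overlap. When limma's spread was allowed to follow the signal level, with the replicate block, Timp3 passed (adjusted p = 0.0114), together with 0.243% of all genes, and no other member did. In these bulk cultures, fewer cells of a kind and less RNA per cell cannot be told apart.

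Timp1, the inducible inhibitor, read 11.16, 11.15 and 11.42 in Pax7-/- replicates 1, 2 and 3, against 10.88, 11.04 and 11.32 in Pax7+/+. It was higher in each pair, by 0.28, 0.10 and 0.10, and the genotypes overlapped (0.16, SE 0.09 with the block, limma adjusted p = 0.804). Timp2 was the steadiest of the inhibitors, with 10.36, 10.31 and 10.32 in the knockout and 10.24, 10.29 and 10.35 in wild type. Its pair differences were 0.12, 0.02 and -0.03, and the 95% interval of the difference in the blocked fit ran from -0.17 to 0.24. Timp4, a TIMP best known from heart, read 5.26, 5.12 and 4.01 in Pax7-/- and 5.29, 5.37 and 4.25 in Pax7+/+, above background only on Pax7+/+ replicate 2. Its size of difference is therefore not interpreted. The log2 ratio of Timp3 to Timp2 was lower in the knockout by 0.57, 0.50 and 0.46 in the 3 pairs.

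**Figure D1:**
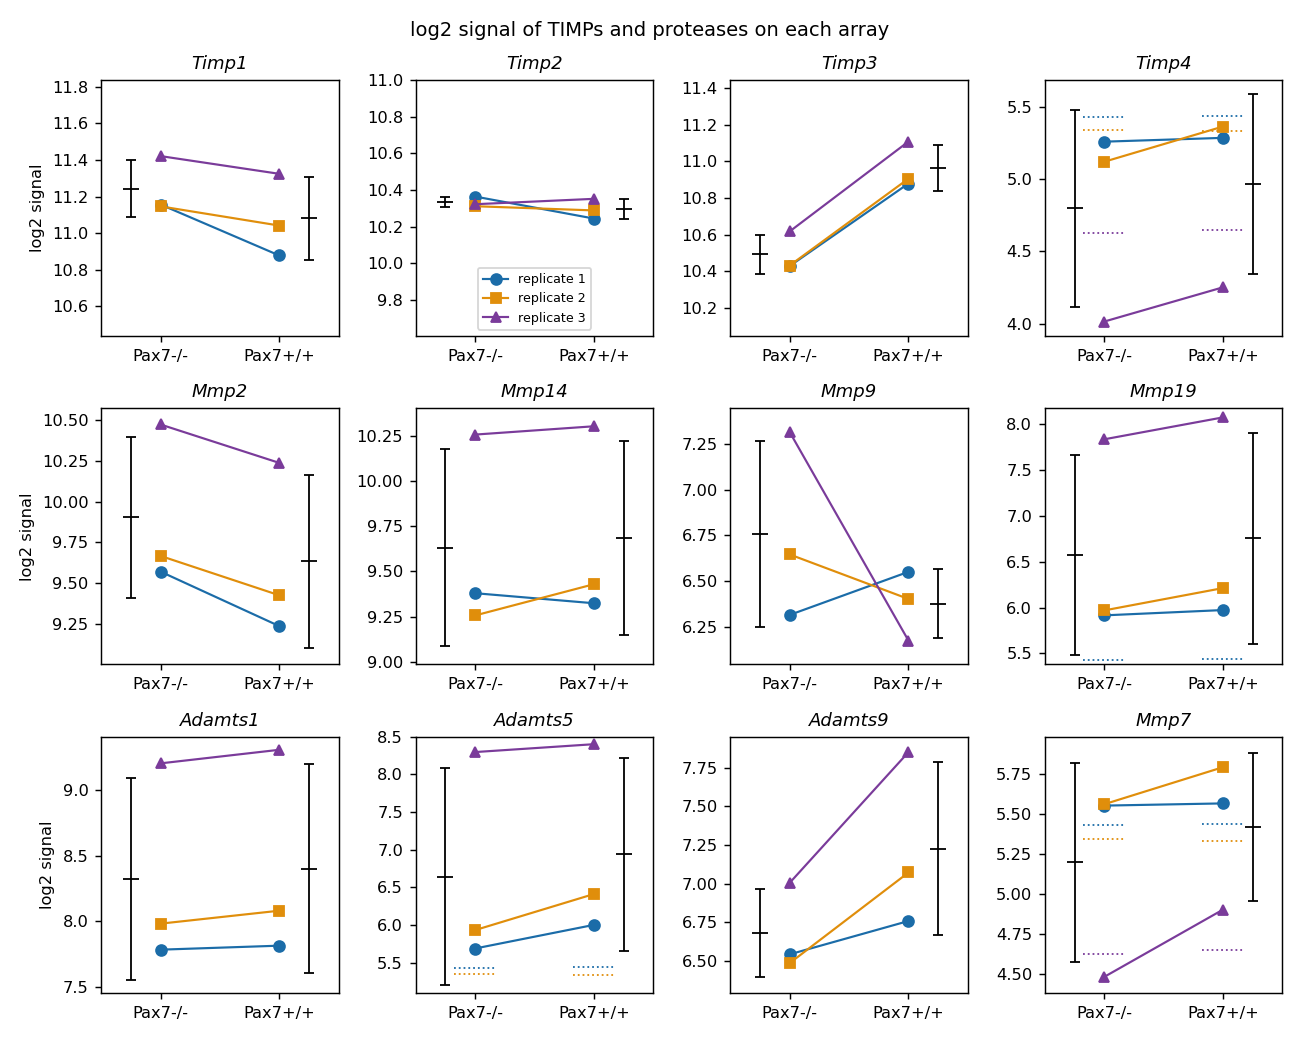
log2 signal (vertical axes, scaled per gene) of 4 TIMPs and 8 proteases on the Pax7-/- and Pax7+/+ arrays; lines join arrays of the same replicate number, black bars beside them give mean and SD (n = 3), and dotted lines mark the background level of an array where it falls in the panel. Timp3 is lower in the knockout by nearly the same amount in the 3 pairs. Its replicate 3 arrays lie above the others in both genotypes, but by less than those of Mmp2, Mmp14, Mmp19, Adamts1 and Adamts5.

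The gelatinases were Mmp2 and Mmp9. Mmp2, gelatinase A, read 9.57, 9.67 and 10.47 in Pax7-/- replicates 1, 2 and 3, against 9.24, 9.42 and 10.24 in Pax7+/+. Within each pair the knockout was higher, by 0.33, 0.24 and 0.24, but the replicate 3 arrays of both genotypes lay above the others and the genotypes overlapped. The difference of 0.27 had an SE of 0.38 without the block and 0.09 with it (95% interval with the block from 0.07 to 0.47, limma adjusted p = 0.607). Mmp9, gelatinase B, singled out after its values were seen, read 6.32, 6.65 and 7.31 in the knockout and 6.55, 6.40 and 6.17 in wild type. Its pair differences of -0.24, 0.24 and 1.14 differed in sign, and its mean of 0.38 rests on replicate 3: with the block and without replicate 3 it was 0.00. The log2 ratio of Mmp2 to Timp3 was higher in the knockout by 0.79, 0.72 and 0.73 in the 3 pairs, without overlap of genotypes, and that of Mmp2 to Timp2 by 0.21, 0.22 and 0.27, with overlap. The ratio of Mmp2 to Timp1 was at 0.06, 0.14 and 0.14 and that of Mmp14 to Timp2 at -0.06, -0.20 and -0.02. Over Timp3, Mmp14 was at 0.51, 0.30 and 0.45 and Adamts1 at 0.42, 0.38 and 0.39. Also over Timp3, Adamts5 was at 0.14, -0.005 and 0.39 and Adamts9 at 0.24, -0.11 and -0.35. In all of these further ratios the genotypes overlapped. Ratios over Timp3 carry its own lower signal, and none of the ratios was tested.

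Of the membrane-type MMPs, Mmp14 (MT1-MMP), a collagenase of the cell surface, read 9.38, 9.26 and 10.26 in Pax7-/- and 9.32, 9.43 and 10.30 in Pax7+/+. Its pair differences of 0.06, -0.17 and -0.05 did not share a sign (95% interval with the block from -0.27 to 0.16). Mmp17, a membrane-type MMP with a lipid anchor, was at 0.03, -0.10 and -0.61 in the pairs and Mmp24 at -0.02, 0.08 and 0.55, so both means (-0.23 and 0.21) came mostly from replicate 3. Mmp16 and Mmp25 did not pass background on all arrays of a genotype; Mmp16 exceeded it only on the replicate 3 arrays.

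Stromelysins, the matrilysin Mmp7 and the remaining MMPs had differences between -0.22 and 0.17. Mmp11, or stromelysin-3, which is activated by furin inside the cell, was higher in the 3 pairs by 0.23, 0.08 and 0.09. A further probe set of Mmp11, above background on 3 arrays, was at 0.10, -0.23 and 0.02, without a shared sign. Mmp19 read 5.92, 5.97 and 7.84 in Pax7-/- and 5.97, 6.21 and 8.07 in Pax7+/+, and was lower in the pairs by 0.06, 0.24 and 0.24 (-0.18, SE 0.09 with the block, limma adjusted p = 0.784). Mmp7 read 5.55, 5.56 and 4.48 in the knockout and 5.57, 5.79 and 4.90 in wild type. It was lower by 0.01, 0.23 and 0.42, but lay below background on Pax7-/- replicate 3 and close to it elsewhere, and a further probe set of Mmp7 was above background on 0 arrays. Mmp23 was at -0.04, 0.01 and -0.20, and Mmp21 and Mmp28 were above background on some arrays only.

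The collagenases Mmp1a, Mmp1b, Mmp8 and Mmp13 and the macrophage elastase Mmp12 were above background on 0 of the 6 arrays, as were the stromelysin Mmp10 and the enamel protease Mmp20. All 7 belong to the 10 MMP genes that lie side by side on chromosome 9 in the RefSeq annotation of GRCm38.p6. Of the other 3 genes of that cluster, Mmp3 (stromelysin-1) exceeded background only on both replicate 3 arrays, at 5.21 in Pax7-/- and 5.28 in Pax7+/+, Mmp27 only on Pax7-/- replicate 3, and Mmp7 on 5 arrays. Outside the cluster, 8 of 12 MMPs were above background on all 6 arrays. Differences of genes below background are not interpreted: the pair differences of Mmp13 and Mmp10 in replicate 3, 0.48 and 0.47, were both between signals below background. Of 10 macrophage and neutrophil markers, Csf1r and S100a9 were above background on all 6 arrays, and Ptprc, Itgam, Cd14, Mrc1 and S100a8 on 0. Cd68 was above it on 3 Pax7-/- arrays and 1 Pax7+/+ array, Adgre1 on 1 array of each genotype and Lyz2 on 1 Pax7+/+ array. Lyz2, at -0.41, and Mrc1, at -0.31, were lower in all 3 pairs, and Cd68, at 0.21, was higher. The summed linear signal of that list of 10 genes was 314 to 428 on the Pax7-/- arrays and 313 to 430 on the Pax7+/+ arrays. That sum for the cartilage and bone list of 8 genes did not overlap, at 426 to 450 in Pax7-/- and 451 to 521 in Pax7+/+, with Col2a1 and Col10a1 above background on all 6 arrays, Acan on 5, Col9a1 on 4, and Matn1, Sp7, Bglap and Ibsp on 0. Col10a1 was at 0.04, -0.37 and -0.50 in the pairs. The part of either list in the differences of the proteases was not tested.

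The ADAMTS proteases that cleave proteoglycans held the 2 most negative differences among the proteases. Adamts9, which cuts versican and aggrecan, read 6.54, 6.49 and 7.005 in Pax7-/- replicates 1, 2 and 3, against 6.76, 7.07 and 7.85 in Pax7+/+. It was lower in each pair, by 0.22, 0.59 and 0.85, and the genotypes overlapped since Pax7-/- replicate 3 lay above Pax7+/+ replicate 1. The means were 6.68 ± 0.28 in Pax7-/- and 7.23 ± 0.56 in Pax7+/+ cells (SD, n = 3 each), a difference of -0.55, or 1.46-fold (SE 0.34 without the block; 0.12 with it, 95% interval from -0.83 to -0.27, limma adjusted p = 0.282). With the block and without replicate 1, Adamts9 passed (-0.72, limma adjusted p = 0.0123), as did 0.442% of all genes; without replicate 3 it was at -0.40 and did not pass.

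Adamts5, the main aggrecanase of mouse cartilage, read 5.69, 5.93 and 8.30 in Pax7-/- and 6.0003, 6.41 and 8.40 in Pax7+/+. It was lower in the pairs by 0.31, 0.48 and 0.10 (-0.30, SE 0.94 without the block and 0.10 with it, limma adjusted p = 0.617 with the block). The step between replicate 3 and the others was larger than that difference, at 2.49 in Pax7-/- and 2.20 in Pax7+/+. Adamts1, another versican-cleaving enzyme and the neighbour of Adamts5 on chromosome 16, read 7.78, 7.98 and 9.20 in Pax7-/- and 7.81, 8.08 and 9.31 in Pax7+/+, with pair differences of -0.03, -0.10 and -0.10. Adamts4 was above background only on the replicate 3 arrays, and Adamts8, Adamts15 and Adamts20 on 0 arrays. In all, 3 of the 7 members of this class were lower in the 3 pairs and 0 were higher, against 13.8% lower and 13.8% higher of all genes. The 3 are the only members of the class above background on all arrays of a genotype.

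Among procollagen N-proteinases, Adamts14 had pair differences of 0.18, -0.12 and 0.01, and Adamts3 was not above background on any array. Adamts12 and Adamts7, which cleave the cartilage protein COMP, were at -0.12, 0.08 and -0.24 and at 0.20, -0.31 and 0.15. Adamts10, which binds fibrillin microfibrils, was at 0.14, -0.46 and 0.08. Adamts6, a close relative of Adamts10, was higher by 0.07, 0.09 and 0.14, with a replicate 3 step of 2.19 in the knockout and 2.13 in wild type. Adamts17 was at -0.01, 0.02 and 0.17. Adamts13, the von Willebrand factor protease, and Adamts16 were above background on some arrays only, and Adamts18 and Adamts19 on 0.

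Proteases and inhibitors were set side by side by their medians, without a test. The 40 proteases had a median difference of -0.00, with pair medians of -0.01, -0.00 and -0.00, and the 4 TIMPs one of -0.07, with pair medians of 0.05, -0.11 and -0.13. Over all genes the median was -0.00, with 0.02, -0.02 and 0.00 in the pairs. MMPs were at -0.01 (0.01 after quantile normalization) and ADAMTS genes at 0.01, so their medians have no settled sign. Nor has that of the TIMPs, which includes Timp4: among genes above background it was 0.038, and the median of the 18 proteases above background was -0.07. Lower values in all 3 pairs were found for 10 of the 44 members (22.7%), against 13.8% of all genes, and higher values for 5 (11.4%), against 13.8% of all genes. The 10 were Timp3, Timp4, Mmp7, Mmp19, Mmp20, Mmp25, Mmp28, Adamts1, Adamts5 and Adamts9, and the 5 were Timp1, Mmp2, Mmp11, Adamts6 and Adamts19. Of these 15 genes, Timp4, Mmp20, Mmp25, Mmp28 and Adamts19 were not above background on all arrays of either genotype. A total of 20 of the 44 members were above background on all 6 arrays and 14 on none of them. Of all 22180 genes, 8416 were above it on all 6 arrays and 7743 on none.

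**Figure D2:**
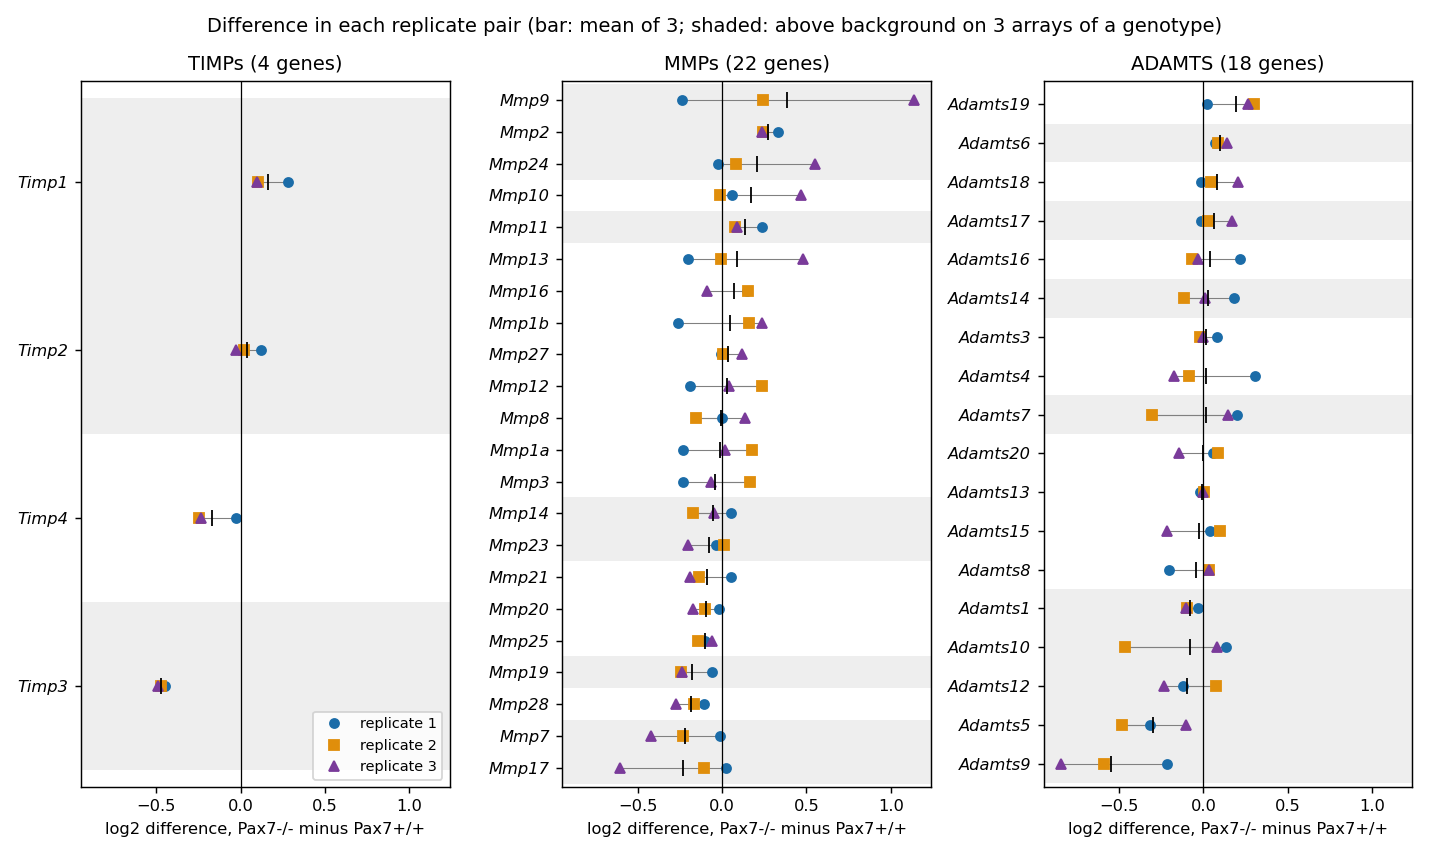
Difference in log2 signal between Pax7-/- and Pax7+/+ (horizontal axes) for each of the 44 members in each replicate pair, by family; black ticks give the mean of the 3 pairs and shaded rows the genes above background on all 3 arrays of at least 1 genotype. The 3 points of Timp3 lie between -0.49 and -0.45, while those of Mmp9 span -0.24 to 1.14 and those of Adamts9 -0.85 to -0.22.

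Replicate 3 differed from the other arrays over all genes, and several members differed with it in both genotypes. Replicate 3 minus the mean of replicates 1 and 2 was 2.49 for Adamts5 in Pax7-/- and 2.20 in Pax7+/+. For Mmp19 it was 1.89 in Pax7-/- and 1.98 in Pax7+/+, for Adamts12 1.34 in Pax7-/- and 1.55 in Pax7+/+, and for Adamts1 1.32 in Pax7-/- and 1.36 in Pax7+/+. In all, 6 of the 44 members were higher by over 1 log2 unit on replicate 3 in both genotypes (these 4, Adamts6 and Mmp16). By over 1 lower were 4 (Adamts16, Adamts17, Mmp25 and Timp4). Over all 22180 genes, 5105 were higher and 1986 lower by that much in both. Among the members the share higher was thus smaller than over all genes, and the share lower about the same. Of the 4 lower members, only Adamts17 was above background on all arrays of a genotype, and the background level itself was lower on replicate 3. Mmp2 was higher by 0.85 in Pax7-/- and 0.91 in Pax7+/+ and Mmp14 by 0.94 in Pax7-/- and 0.93 in Pax7+/+, while Timp1, Timp2 and Timp3 moved by 0.36 at most. The genotypes moved in opposite directions for Mmp9, at 0.83 in Pax7-/- and -0.30 in Pax7+/+, and for Mmp17, at -0.12 in Pax7-/- and 0.45 in Pax7+/+. The labels do not say what sets replicate 3 apart.

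**Figure D3:**
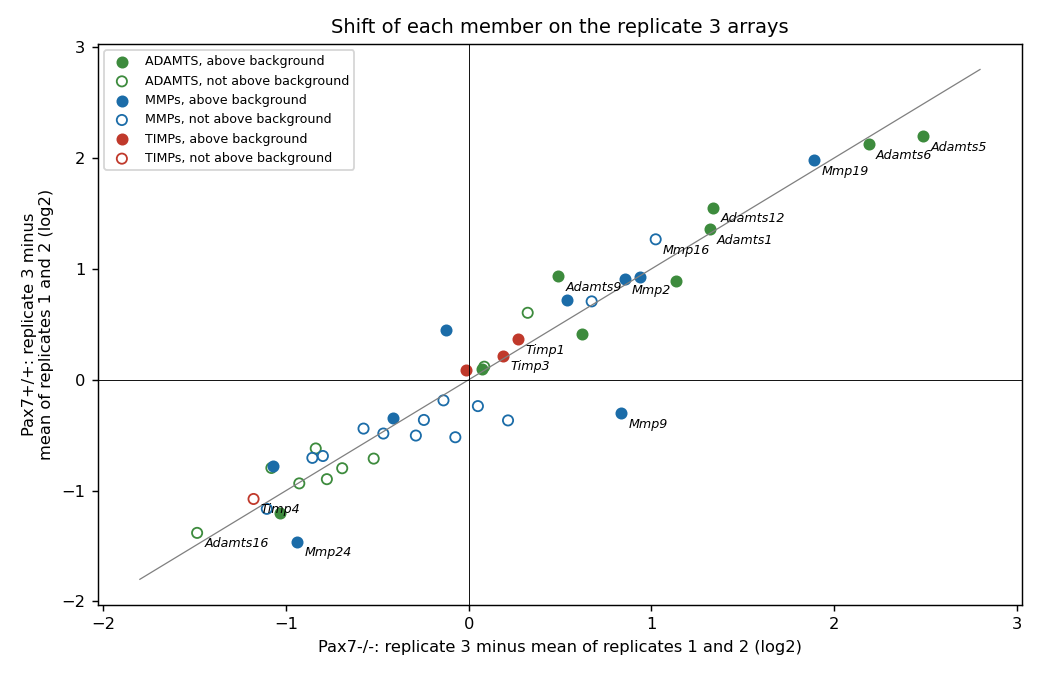
Replicate 3 minus the mean of replicates 1 and 2 (log2) in Pax7-/- cells (horizontal axis) and Pax7+/+ cells (vertical axis) for the 44 members, filled where above background on all 3 arrays of a genotype; the grey line marks equal shifts. Adamts5, Adamts6 and Mmp19 shift by about the same amount in both genotypes, and Mmp9 lies off the line.

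Promoter windows were compared between the chromosome 9 cluster and the other members, and are printed for the members with the largest lower values, Timp3 and Adamts9, and for the cluster genes Mmp3 and Mmp13. They run from 250 bases before to 50 after the RefSeq start (GRCm38.p6), and such windows were found for 30 of the 44 members. Pax7 is a transcription factor whose homeodomain can bind paired TAAT sites, and AP-1 (Fos and Jun dimers) is the classic inducer of collagenase and stromelysin genes. Capitals mark matches on either strand. The AP-1 motif was searched as TGANTCA. The TATA box was searched as TATAAA. The GC box, bound by Sp1 family factors, was searched as GGGCGG. The palindromic Pax homeodomain motif, of facing TAAT sites, was searched as well. No marked motif overlaps another. Timp3 lies at chr10:86300162-86300461 (+), Adamts9 at chr6:92943485-92943784 (-), Mmp3 at chr9:7445572-7445871 (+) and Mmp13 at chr9:7272264-7272563 (+).
Timp3: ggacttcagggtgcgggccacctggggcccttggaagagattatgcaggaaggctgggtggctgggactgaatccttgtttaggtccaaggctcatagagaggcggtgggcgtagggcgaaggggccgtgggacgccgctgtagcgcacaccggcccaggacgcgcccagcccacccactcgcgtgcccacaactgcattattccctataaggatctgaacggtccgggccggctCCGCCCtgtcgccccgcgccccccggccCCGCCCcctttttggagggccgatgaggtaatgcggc
Adamts9: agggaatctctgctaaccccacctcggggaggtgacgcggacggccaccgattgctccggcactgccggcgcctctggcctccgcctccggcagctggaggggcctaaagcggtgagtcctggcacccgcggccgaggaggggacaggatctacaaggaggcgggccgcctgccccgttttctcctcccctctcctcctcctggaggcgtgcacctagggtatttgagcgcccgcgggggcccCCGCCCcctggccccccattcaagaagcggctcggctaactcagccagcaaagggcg
Mmp3: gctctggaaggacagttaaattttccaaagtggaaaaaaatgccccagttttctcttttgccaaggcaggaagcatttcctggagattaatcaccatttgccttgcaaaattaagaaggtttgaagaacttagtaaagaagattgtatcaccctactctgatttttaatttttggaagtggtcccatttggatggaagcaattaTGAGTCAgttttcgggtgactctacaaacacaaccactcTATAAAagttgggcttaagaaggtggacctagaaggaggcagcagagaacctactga
Mmp13: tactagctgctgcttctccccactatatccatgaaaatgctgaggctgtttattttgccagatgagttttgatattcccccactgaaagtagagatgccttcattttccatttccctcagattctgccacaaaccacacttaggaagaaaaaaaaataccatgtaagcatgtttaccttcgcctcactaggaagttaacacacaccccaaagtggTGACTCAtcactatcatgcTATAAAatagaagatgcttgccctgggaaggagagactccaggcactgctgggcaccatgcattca

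The windows of Timp3 and Adamts9 were rich in G and C (67.0% and 70.0%) and held 2 and 1 GC boxes, and those of Mmp3 and Mmp13 (40.0% and 43.7%) each held an AP-1 motif and a TATA box. Members are counted by gene below, and the 30 genes had 33 windows. The AP-1 motif was found in 8 of the 10 cluster genes (all but Mmp8 and Mmp27) and in 0 of the 20 other members with a window. By window it was in 24.2% of the member windows, against 7.81% of all 32851 windows. A TATA box was found in 9 of the 10 cluster genes and in Mmp21 and Adamts1 outside it. By window it was in 33.3% of the member windows, against 13.6% of all windows. The GC box was found in 16 of the 20 others, among them Timp1, Timp2 and Timp3, and in 0 of the cluster. By window it was in 48.5% of the member windows, against 35.7% of all windows. The Pax homeodomain motif was found in 0 of the 30 genes and in 0.390% of all windows. So rare a motif is unlikely to occur in so few windows, so its absence says nothing about the members. Single TAAT sites and other spacings were not searched. Matches describe these letters in these windows and show no binding.

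Other genes of pericellular proteolysis were examined as a list of 56, of which 54 were measured. No gene of the list passed limma's test without the block or with it, and with the block an unadjusted p under 0.05 was found for 8 (14.8%, against 6.73% of all genes), 5 higher and 3 lower. In all 3 pairs 11 genes were lower (20.4%) and 14 higher (25.9%), against 13.8% and 13.8% of all genes. Tll1, a tolloid protease that processes procollagens, read 8.08, 8.10 and 9.82 in Pax7-/- and 7.41, 7.80 and 9.38 in Pax7+/+, higher in the pairs by 0.67, 0.30 and 0.44 (SE 0.10 with the block, limma adjusted p = 0.258). Among cathepsins, proteases mostly of lysosomes, Ctsb was higher by 0.42, 0.30 and 0.31, Ctsl by 0.26, 0.17 and 0.29 and Ctsd by 0.53, 0.07 and 0.16. Ctsk, a collagen-degrading cathepsin, was lower by 0.29, 0.21 and 0.17. The class of 7 cathepsin and cystatin genes held 4 of the 8 genes with an unadjusted p under 0.05.

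Adamtsl1, a secreted ADAMTS relative without protease activity, was lower by 0.13, 0.22 and 0.60, and the membrane protease Adam33 by 0.10, 0.11 and 0.62. Serpinb2, an inhibitor of plasminogen activators, was at -0.02, 0.29 and 1.80 and above background only on the replicate 3 arrays. It passed only with the block and without replicate 1, when it was the single gene of the list to do so. The plasminogen activators Plau and Plat were at 0.28, -0.26 and 0.09 and at -0.27, -0.17 and 0.06, and Reck, a membrane-anchored inhibitor of MMPs, was at 0.04, -0.16 and -0.41. Furin, which activates membrane-type MMPs and Mmp11, was higher by 0.25, 0.28 and 0.09. These 4, Plau, Plat, Reck and Furin, were chosen after their values were seen.

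**Figure D4:**
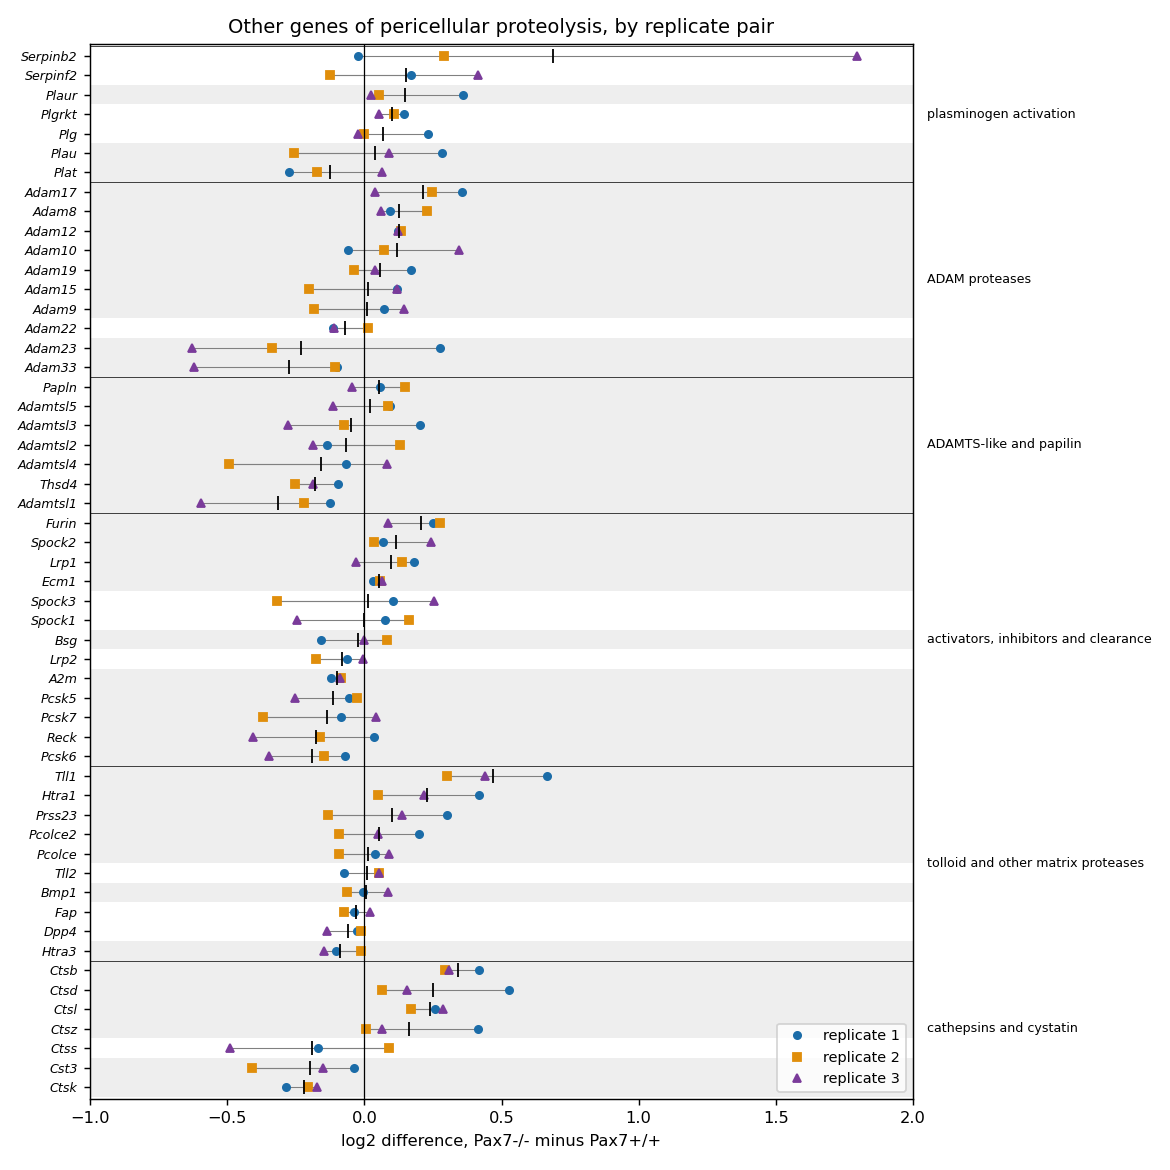
Difference in log2 signal between Pax7-/- and Pax7+/+ (horizontal axis) for 54 other genes of pericellular proteolysis in each replicate pair, grouped by class; black ticks give the mean of the 3 pairs and shaded rows the genes above background on all 3 arrays of at least 1 genotype. Tll1, Ctsb and Ctsl are higher in all 3 pairs, and the mean of Serpinb2 rests on the replicate 3 value of 1.80.

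The summed linear signal of the 10 fibroblast markers was 13912 to 16294 on the Pax7-/- arrays and 13880 to 16310 on the Pax7+/+ arrays. That sum gives most weight to the brightest markers, Fn1 and Vim. Of the 10 markers 5 were lower in all 3 pairs (Col1a2, Col3a1, Pdgfrb, Thy1 and S100a4), against 13.8% of all genes. Fn1 was higher in all 3, at 0.14, as were 13.8% of all genes. Col3a1 was at -0.40 (SE 0.10 with the block), and Pdgfra at -0.50, 0.06 and -0.64 in the pairs. None of the 10 passed limma's test with the block. Summed signals of 7 epithelial markers were 195 to 352 in Pax7-/- and 196 to 373 in Pax7+/+. Epcam, Krt8 and Krt18 were above background on all 6 arrays and Krt14 and Cldn7 on 0. Cdh1 was above it on 1 array of each genotype and Cldn4 on 1 Pax7-/- array. For 7 endothelial markers the sums were 149.6 to 239.6 in Pax7-/- and 133 to 237 in Pax7+/+. Pecam1, Kdr, Tek, Tie1 and Cldn5 were above background on 0 arrays. Cdh5 was above it on 3 Pax7-/- and 2 Pax7+/+ arrays, and Emcn on 1 Pax7-/- array. Emcn (0.22, 0.21 and 1.30) and Tek were higher in all 3 pairs, and Tie1 was lower. Sums of 8 pluripotent cell markers were 155 to 266 in Pax7-/- and 164 to 269.6 in Pax7+/+. Whether a shift in the kinds of cells in the cultures has a part in the lower Timp3 signal was not tested.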

How the data were processed

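Per the submitters' processing notes, the authors made the values with Partek and RMA. The sources used here give no versions or parameters. The values were deposited per probe set and were read here as log2 signals. That the scale is log2 rests on the value range and on RMA's usual output. No further normalization was applied. Of 41345 probe sets, 23521 had 1 gene in the platform annotation, which gave 22180 genes, and gene names and neighbours came from RefSeq (GRCm38.p6). All genes entered limma 3.58.1 (lmFit and eBayes in R 4.3.3, two-sided). Genotype was the only term, and Benjamini-Hochberg adjustment ran over all genes at 0.05.

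Equal replicate numbers deviated together from their genotype's mean, with correlations of 0.920 for replicate 1, 0.895 for replicate 2 and 0.973 for replicate 3. The bound was 0.1. Since replicate 3 stood apart in both genotypes, its step alone can bring replicates 1 and 2 above that bound. Unequal numbers were not correlated, so these values cannot show which arrays of replicates 1 and 2 belong together. The fit with the number as a block is given beside the results. No label states the pairing by number. That of replicate 3 was inferred from the arrays, and that of replicates 1 and 2 was assumed from their numbers. The script was tested on simulated data.

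Members, gene lists and tests were chosen with earlier results of these data known. Full values were given for all TIMPs and for proteases above background on all arrays of a genotype that either had 1 sign in the 3 pairs and ranked among the 12 smallest blocked p of the members, or were among the 6 members of highest signal. Of the other list of proteolysis genes the 8 with the smallest blocked p were named. Alternatives were a batch block, quantile normalization, the mean of probe sets, a filter on dim genes, a mean-variance trend and leaving out arrays or replicate numbers.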

Additional observations from a re-analysis of the deposited data

How the results depend on the processing

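No alternative with all 6 arrays turned the sign of any of the 12 genes given with full values, Mmp9 among them, and the only call it changed was that of Timp3. Over all genes limma called 0 without the block, 17 with the replicate block, 19 with replicates 1 and 2 against replicate 3 as blocks, 21 with quantile normalization and the replicate block, 45 among genes above background with the block and 54 with a mean-variance trend and the block. The members called were 0 in each of these but the last, where it was 1 (Timp3). Leaving out an array or a replicate number gave 0 to 98 calls over all genes, 0 to 1 among members and 0 to 1 in the proteolysis list, each highest with the block and without replicate 1. The median of MMPs was 0.0070 with quantile normalization, with and without the replicate block. Among genes above background, with the replicate block, the medians of MMPs, ADAMTS genes and TIMPs were -0.054, -0.078 and 0.038. This filter leaves fewer genes. Leaving out gave medians of -0.054 to 0.073 for MMPs, -0.052 to 0.052 for ADAMTS genes and -0.19 to 0.057 for TIMPs. Leaving out 1 array without a block leaves replicate 3 weighing more in 1 genotype, and turned the sign of Adamts1 (-0.52 to 0.38), Adamts5 (-1.13 to 0.43), Mmp14 (-0.37 to 0.25), Mmp19 (-0.81 to 0.48), Mmp2 (-0.014 to 0.57), Mmp7 (-0.48 to 0.14) and Timp4 (-0.53 to 0.22). With the block, Timp2 turned without replicate 1 (-0.0032 to 0.072) and Mmp14 without replicate 2. Timp3 stayed between -0.53 and -0.40 whichever array or replicate number was left out. The cause of the other changes was not tested.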

Other observations

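A further probe set was measured for 4 members. That of Mmp11 had pair differences of 0.10, -0.23 and 0.02, against 0.23, 0.08 and 0.09 for the one used. That of Adamts14 was at 0.09, 0.06 and 0.08, against 0.18, -0.12 and 0.01. Those of Mmp7 and Adamts8 were above background on 0 arrays.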
